A study of Mus musculus with 16 samples.

Results

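The 9 genes described here encode the matrilins (Matn1, Matn2, Matn3 and Matn4), cartilage oligomeric matrix protein (Comp) and the other thrombospondins (Thbs1, Thbs2, Thbs3 and Thbs4). They were taken by gene symbol from the 55450 genes of the expression tables. The rule was family membership and not a measured value, although earlier results of these data were known. All 9 were found. Expression was measured by messenger RNA sequencing in 4 groups of 4 libraries. The cells were primary chondrocytes, which make and maintain cartilage, cultured from the joints of mice. All cells were kept at 3% oxygen in medium with 10% serum. The bleomycin group received hyaluronidase at 4 U/mL for 4 h, then bleomycin, an agent that breaks DNA, at 50 µg/mL for 24 h, and was then left in fresh medium for 5 days. The doxorubicin group received this topoisomerase II poison at 50 nM for 5 days, with the medium renewed every 48 h. The il1b group received interleukin-1 beta (IL-1β), an inflammatory cytokine, at 1 ng/mL for 24 h. For the vehicle group the labels give phosphate-buffered saline, in the volume of the cytokine, over the same 24 h. The study used both drugs as inducers of senescence and IL-1β as an acute inflammatory stress. The time at which vehicle cells were harvested and whether they received hyaluronidase are not given in the sources used here, nor are the strain, age and sex of the mice, or whether replicates came from separate animals or cultures. The p-values therefore measure the spread between these libraries, which may be technical.

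Matrilins are secreted adaptor proteins of the cartilage matrix. Their von Willebrand factor A domains bind collagen fibrils and aggrecan, and a coiled coil joins the chains into oligomers. Matn1 and Matn3 are typical of cartilage and can assemble with each other, whereas Matn2 and Matn4 are found in many connective tissues. Thrombospondins are secreted calcium-binding glycoproteins. Thbs1 and Thbs2 form trimers that bind the receptors CD36 and CD47, and Thbs1 can activate latent TGF-beta. Thbs3, Thbs4 and COMP form pentamers, and COMP binds collagens II and IX and helps to order their fibrils. Inherited mutations in COMP and MATN3 cause skeletal dysplasias with early joint disease.

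Levels are in FPKM, mapped fragments divided by the length of the gene and the size of the library, so they can be compared between genes. Estimated depth was 15.7 to 21.8 M fragments (M, mega) per library, and 12014 to 12481 genes per library reached 1 FPKM. All 9 genes were above 1 FPKM in all 16 libraries, from 7.93 FPKM for Thbs4 in an il1b library to 2584 FPKM for Thbs1 in a doxorubicin library. The fragments behind a value ranged from about 370 for Matn4 to about 298660 for Thbs1. The 7 chondrocyte markers (Col2a1, Acan, Sox9, Hapln1, Col9a1, Col11a2 and Cnmd) were present in every library and summed to 10919.5 to 14428 FPKM in vehicle, 7538 to 9875 in bleomycin, 7898 to 10414 in doxorubicin and 4927 to 5313 in il1b. The 5 endothelial markers summed to at most 0.800 FPKM in a library. Adgre1, which defines macrophages, was at 0 in 13 of 16 libraries, although the 6 macrophage markers together summed to 7.87 to 10.2 FPKM in vehicle and 28.6 to 34.3 in il1b, and the 3 that were tested rose in every treated group. In such bulk libraries, fewer cells of a type and less of a transcript per cell cannot be told apart. The FPKM of a library summed to 405159 to 423830 in the vehicle, bleomycin and doxorubicin groups and to 521294 to 559190 in il1b, so rescaling each library to the same sum (the TPM scale) moves the median log2 difference of all genes between il1b and vehicle by -0.34.

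**Figure D1:**
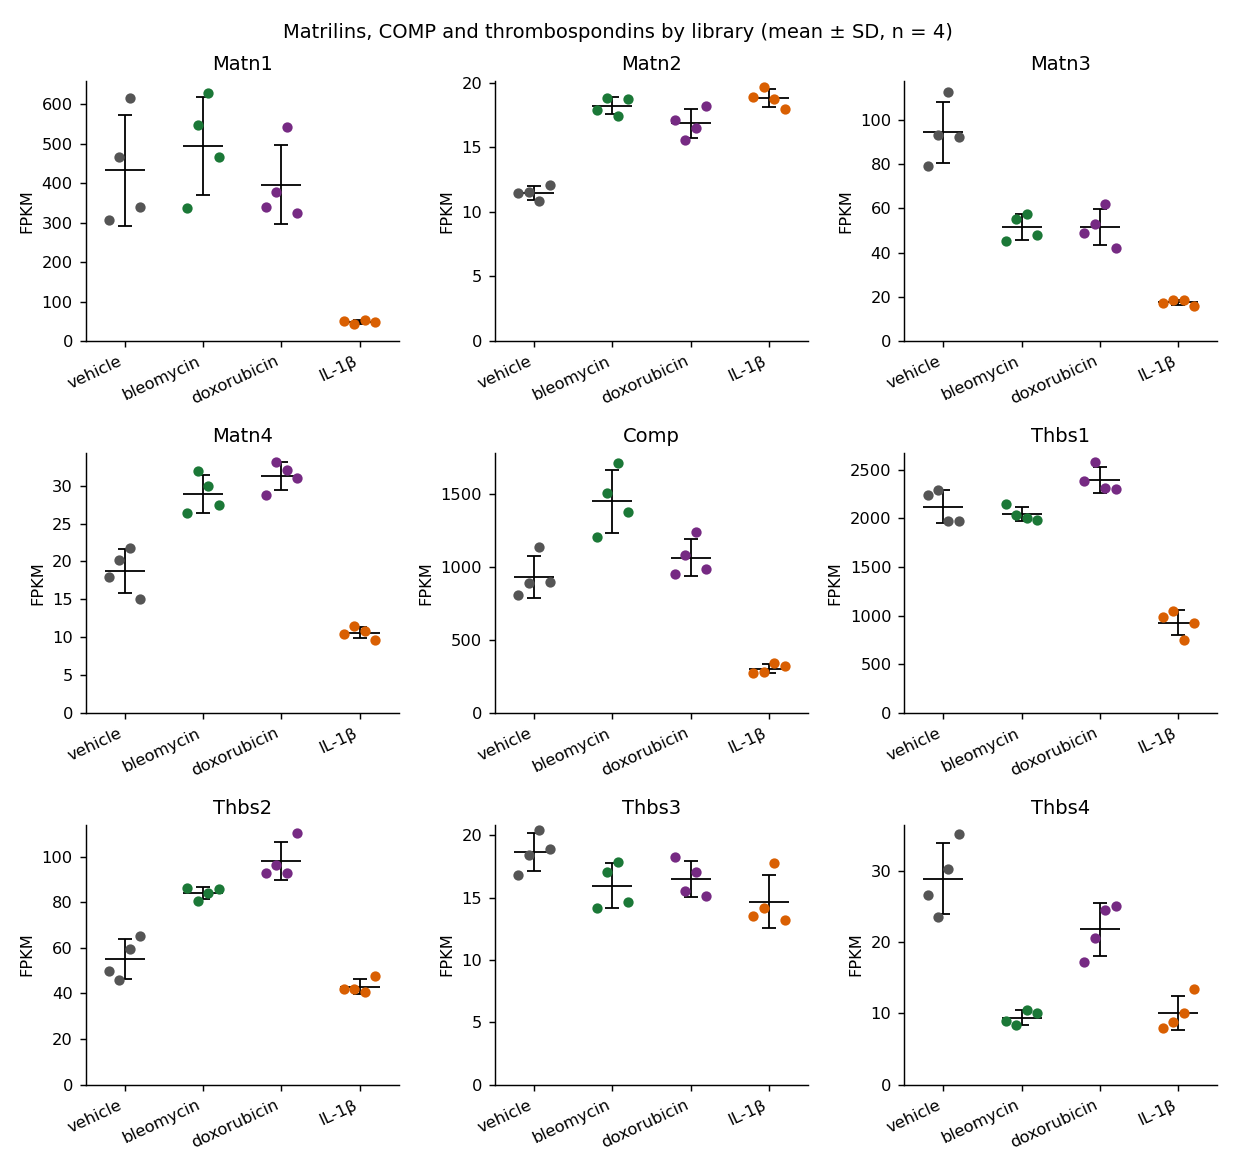
FPKM of the 9 genes in each library of the 4 groups; each panel has its own linear axis from 0, points are libraries in replicate order, and the bar and whiskers are the mean ± SD of 4. The IL-1β libraries of Matn1, Matn3, Matn4, Comp and Thbs1 lie below every library of the other groups, those of Matn2 lie above every vehicle library, and Thbs4 is low after both bleomycin and IL-1β.

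In vehicle cells Thbs1 stood highest, at 2121 ± 171 FPKM (SD, n = 4), rank 11 among all genes. Comp followed at 934 ± 143 FPKM and rank 45, Matn1 at 433 ± 140.3 FPKM and rank 137, and Matn3 at 94.5 ± 13.8 FPKM. Thbs2 was at 55.1 ± 8.89 FPKM, and Thbs4, Matn4, Thbs3 and Matn2 lay between 28.9 ± 5.00 and 11.5 ± 0.505 FPKM. Matn1 made up 76.9% ± 3.52 of the summed FPKM of the 4 matrilins. Thbs1 made up 67.2% ± 4.55 and Comp 29.6% ± 4.23 of the sum over Comp and the thrombospondins. In vehicle cells, then, 1 gene held most of the matrilin transcripts, and Thbs1 with Comp held nearly all of the thrombospondin transcripts.

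Each group was compared with the others by limma on log2(FPKM + 1), and a gene was called higher or lower at a Benjamini-Hochberg adjusted p under 0.05 over the 12976 genes tested. Under IL-1β all 9 genes were called, 8 lower than in vehicle and Matn2 higher. In that comparison 43.0% of all tested genes were called, 24.5% higher and 18.4% lower. The median log2 difference of the 9 genes was -1.20, beside 0.03 for all tested genes. After bleomycin 4 of 9 rose (Matn2, Matn4, Comp and Thbs2), 2 fell (Matn3 and Thbs4) and 3 were not called, where 46.9% of all tested genes were called, 27.9% higher and 19.0% lower. After doxorubicin 3 rose (Matn2, Matn4 and Thbs2), 2 fell (Matn3 and, in a call that several settings ended, Thbs4) and 4 were not called, where 48.3% of all tested genes were called, 25.4% higher and 22.8% lower. The median log2 difference of the 9 genes was 0.21 after bleomycin and 0.18 after doxorubicin, beside 0.06 and 0.02 for all tested genes. The counts called after the drugs were near the background share, and the 8 of 9 lower after IL-1β stood above it. Of the 7 chondrocyte markers, all fell under IL-1β and 6 fell after each drug, and the part of these and the macrophage markers in the counts was not tested. These 3 comparisons share the vehicle libraries. The vehicle is matched by its label to the cytokine only, and its harvest time and any hyaluronidase step are not given. In the comparisons with vehicle, an effect of either drug therefore cannot be told apart from one of culture time. For bleomycin it also cannot be told apart from one of hyaluronidase.

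**Figure D2:**
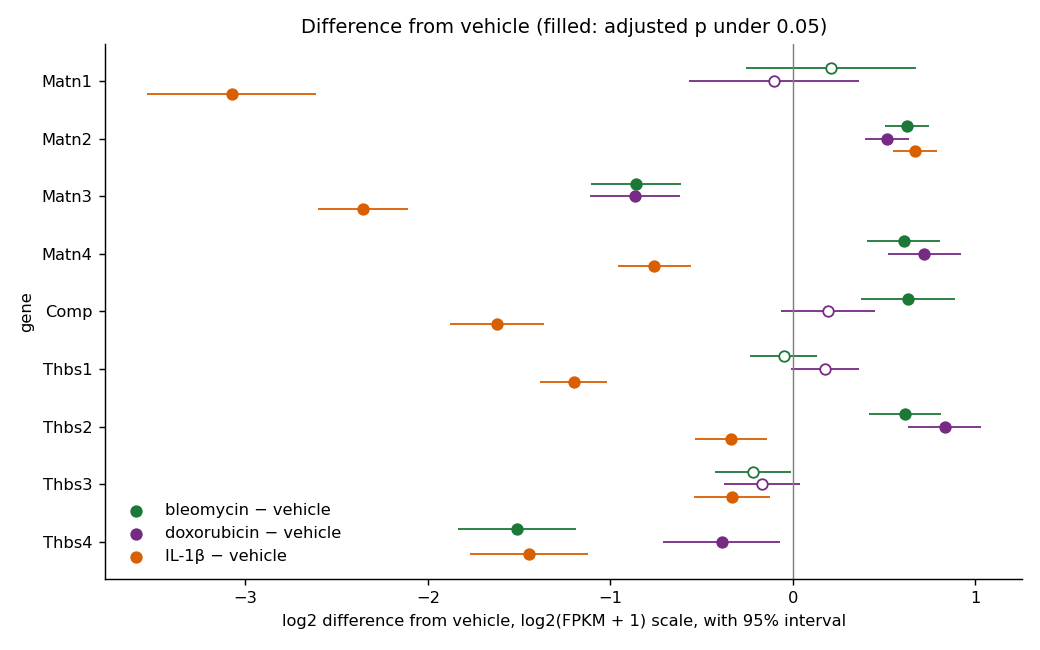
Log2 difference from vehicle of each gene on the log2(FPKM + 1) scale, with its 95% interval; filled points have an adjusted p under 0.05 by limma and open points do not. Points after IL-1β lie left of 0 for every gene but Matn2, while Matn4, Comp and Thbs2 lie on opposite sides of 0 after bleomycin and after IL-1β.

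Matn1 (ENSMUSG00000040533.7, GRCm38 chr4:130944385-130955475, plus strand), the main cartilage matrilin, fell under IL-1β and was called after neither drug. Its vehicle libraries, in replicate order, held 307, 466, 617 and 341 FPKM and its il1b libraries held 50.9, 42.3, 53.5 and 48.0 FPKM. Bleomycin libraries held 337, 546, 629 and 465 FPKM and doxorubicin libraries 339, 378, 541 and 325 FPKM. The lowest vehicle library was thus several times the highest il1b library, and both drug groups overlapped the vehicle. The mean was 8.88-fold lower after IL-1β (log2 difference -3.08 ± 0.22 SE, limma adjusted p = 9.33e-09), the largest difference from vehicle among the 9 genes. For bleomycin the log2 difference was 0.21 (95% interval -0.25 to 0.67, limma adjusted p = 0.46), and for doxorubicin -0.10 (-0.57 to 0.36, limma adjusted p = 0.729). The wide intervals go with the spread between replicates, which was 32.4% of the mean in vehicle and 9.86% in il1b. Replicate 3 was the highest library of all 4 groups for Matn1, and likewise for Matn3 and Comp. Without vehicle replicate 3 the doxorubicin difference of Matn1 changed sign, to 0.085 (limma adjusted p = 0.765).

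Matn3 (ENSMUSG00000020583.4, GRCm38 chr12:8947929-8972028, plus strand), the partner of Matn1 in mixed oligomers, fell after every treatment. It was at 79.2, 93.4, 113 and 92.5 FPKM in vehicle. Bleomycin libraries held 45.3, 55.4, 57.4 and 47.9 FPKM and doxorubicin libraries 49.0, 53.1, 61.9 and 42.2 FPKM. In il1b it was at 17.4, 18.4, 18.5 and 15.9 FPKM. No treated library reached the lowest vehicle library, and the il1b libraries lay below those of both drugs. Matn3 fell 1.83-fold after bleomycin (log2 difference -0.86 ± 0.12 SE, limma adjusted p = 1.87e-05) and 1.83-fold after doxorubicin (-0.86 ± 0.12 SE, limma adjusted p = 1.40e-05). The direct difference between the drugs was 0.01 on the log2 scale (95% interval -0.24 to 0.25, limma adjusted p = 0.983). Under IL-1β it fell 5.38-fold (log2 difference -2.35 ± 0.12 SE, limma adjusted p = 1.36e-10).

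The 250 bases upstream of the RefSeq starts of Matn1 and Matn3 are shown because these partner genes parted after the drugs and fell together under IL-1β. They are read 5′ to 3′ on the gene's own strand of GRCm38.p6, at chr4:130944135-130944384 (plus) for Matn1 and chr12:8947679-8947928 (plus) for Matn3. Capitals mark matches, on either strand, to 5 short motifs named in the text after the sequences.
Matn1: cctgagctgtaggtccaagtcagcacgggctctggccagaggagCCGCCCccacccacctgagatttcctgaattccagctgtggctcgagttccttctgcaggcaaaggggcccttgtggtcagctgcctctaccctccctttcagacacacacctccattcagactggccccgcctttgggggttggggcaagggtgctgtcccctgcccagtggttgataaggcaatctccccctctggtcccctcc
Matn3: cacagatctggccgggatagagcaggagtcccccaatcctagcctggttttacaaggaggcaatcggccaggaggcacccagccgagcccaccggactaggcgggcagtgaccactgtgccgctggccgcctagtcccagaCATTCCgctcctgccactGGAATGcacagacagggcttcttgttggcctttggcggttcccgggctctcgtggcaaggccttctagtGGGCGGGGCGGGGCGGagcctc
The Matn3 window held 3 overlapping GC boxes (GGGCGG), 17, 12 and 7 bases from the start, and a TEAD core on each strand, 104 and 86 bases from it. The Matn1 window held 1 GC box, 201 bases from the start. Among 32536 RefSeq windows of the same length, 33.0% held a GC box. The TEAD core was searched as GGAATG and was held by 12.6% of windows. For the TATA box the letters TATAAA were used, found in 12.3% of windows. The SOX core was searched as ACAAT, which 27.4% of windows held. For the AP-1 site the letters were TGANTCA, and 6.73% of windows held them. Promoter entries were matched for 6 of the 9 genes. A match of letters is a description and not a measured binding site.

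The ratio of Matn1 to Matn3 within a library sets the partners side by side without dependence on library scaling. It was 3.88, 4.99, 5.46 and 3.68 in vehicle, 7.43, 9.87, 11.0 and 9.70 after bleomycin, 6.91, 7.13, 8.74 and 7.72 after doxorubicin, and 2.92, 2.30, 2.89 and 3.02 under IL-1β. Neither drug group nor the il1b group overlapped the vehicle, and the drugs lay above it and IL-1β below. The mean ratio rose from 4.50 ± 0.860 to 9.49 ± 1.48 after bleomycin and 7.62 ± 0.819 after doxorubicin, and fell to 2.78 ± 0.324 under IL-1β. The 2-sided exact permutation p was 0.0286 for each (n = 4 per group), the smallest that 4 against 4 libraries allow, and 0.0375 after adjustment over the 21 ratio tests. All 7 ratios compared here and below were chosen after the levels had been seen. Their p-values therefore describe how far the libraries lie apart and are no support separate from the levels. Set against Col2a1, the type II collagen gene, Matn3 was lower after all 3 treatments, at 0.0105 ± 0.000748 in vehicle, 0.00811 ± 0.000325 after bleomycin, 0.00791 ± 0.000356 after doxorubicin and 0.00442 ± 0.000250 under IL-1β (exact permutation, adjusted p = 0.0375 each, n = 4). Matn3 thus fell by more than Col2a1, which itself fell from 8971 ± 1192 to 6356 ± 718, 6495 ± 764 and 3972 ± 147 FPKM. With quantile normalization the bleomycin difference of Col2a1 was 0 on the log2 scale. That scaling gives equal ranks the same value in every library, so it cannot show a change of level in a gene that keeps its rank.

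Matn4 (ENSMUSG00000016995.17, GRCm38 chr2:164389393-164405160, minus strand), a matrilin of many connective tissues, rose after both drugs and fell under IL-1β. Vehicle libraries held 18.0, 20.2, 21.7 and 15.1 FPKM, bleomycin libraries 26.4, 31.9, 30.0 and 27.5 FPKM, doxorubicin libraries 28.8, 33.2, 32.1 and 31.1 FPKM, and il1b libraries 10.4, 11.4, 10.8 and 9.67 FPKM. The drug libraries all lay above the vehicle and the il1b libraries all below it. The level rose 1.54-fold after bleomycin (log2 difference 0.61 ± 0.09 SE, limma adjusted p = 6.67e-05) and 1.67-fold after doxorubicin (0.72 ± 0.09 SE, limma adjusted p = 1.03e-05). It fell 1.77-fold under IL-1β (-0.76 ± 0.09 SE, limma adjusted p = 6.45e-06), and with TPM the difference was -1.15. The difference between the drugs was not called (log2 -0.11, 95% interval -0.31 to 0.09, limma adjusted p = 0.517).

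Matn2 (ENSMUSG00000022324.15, GRCm38 chr15:34306677-34436273, plus strand), the other widely expressed matrilin and the least abundant of the 9 in vehicle, was the only one of them to rise after all 3 treatments. It was at 11.4, 11.5, 10.8 and 12.1 FPKM in vehicle and at 17.9, 18.8, 17.5 and 18.7 FPKM after bleomycin. It was at 17.1, 15.5, 16.5 and 18.2 FPKM after doxorubicin and at 18.9, 19.7, 18.7 and 18.0 FPKM under IL-1β. Every treated library lay above every vehicle library, with 4.41% spread between the vehicle replicates. The rise was 1.59-fold after bleomycin (log2 difference 0.63 ± 0.06 SE, limma adjusted p = 2.33e-07), 1.47-fold after doxorubicin (0.52, limma adjusted p = 1.38e-06) and 1.64-fold under IL-1β (0.67, limma adjusted p = 6.84e-08). With libraries rescaled to TPM the rise under IL-1β was smaller, 0.33 on the log2 scale, and it was still called (limma adjusted p = 1.48e-04).

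**Figure D3:**
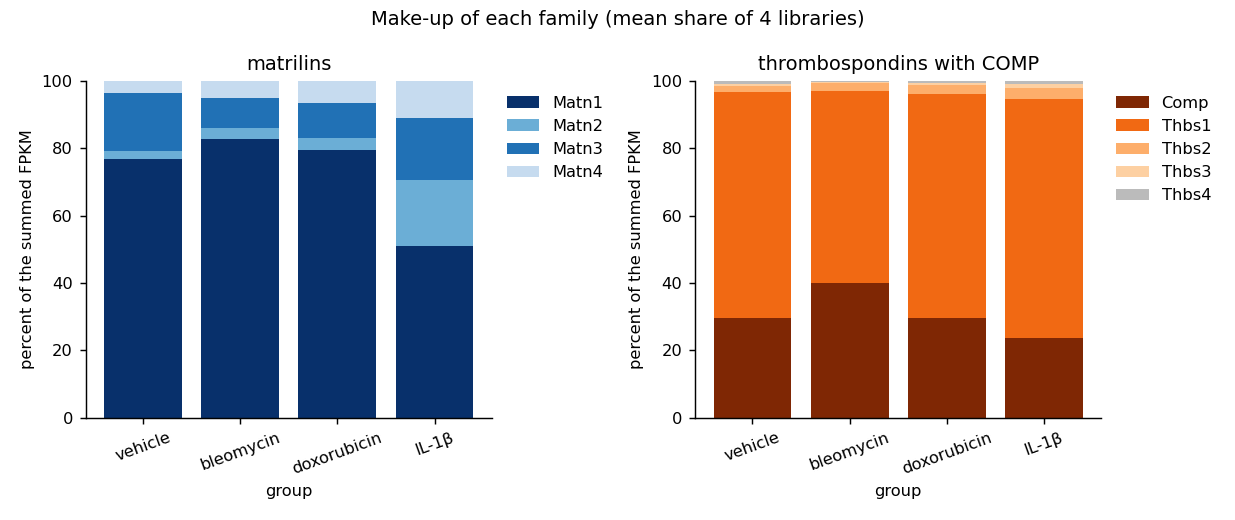
Stacked bars of each gene's percent of the summed FPKM, mean of 4 libraries per group, for the 4 matrilins (left) and for Comp with the 4 thrombospondins (right). The Matn1 part shrinks from 76.9% in vehicle to 50.8% under IL-1β, and the Comp part grows from 29.6% in vehicle to 40.1% after bleomycin.

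The make-up of the matrilin transcripts shifted most under IL-1β. Their sum was 557 ± 155 FPKM in vehicle, 593 ± 132 after bleomycin, 496 ± 108 after doxorubicin and 95.7 ± 4.88 under IL-1β. Matn1 fell to 50.8% ± 3.16 of the sum under IL-1β, while Matn2 went from 2.18% ± 0.619 to 19.7% ± 1.26 and Matn4 from 3.47% ± 0.616 to 11.1% ± 0.906. After bleomycin the shares were 82.9% ± 2.83 for Matn1 and 8.88% ± 1.22 for Matn3, which had been 17.4% ± 2.53 in vehicle. The shares are descriptions and were not tested.

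Comp (ENSMUSG00000031849.9, GRCm38 chr8:70373558-70382066, plus strand) rose after bleomycin and fell under IL-1β. Its libraries held 808, 893, 1141 and 895 FPKM in vehicle and 1202, 1509, 1711 and 1378 FPKM after bleomycin. They held 955, 1079, 1239 and 985 FPKM after doxorubicin and 273, 278, 339 and 318 FPKM under IL-1β. All bleomycin libraries lay above and all il1b libraries below the vehicle, and the doxorubicin libraries overlapped it. Comp rose 1.55-fold after bleomycin (log2 difference 0.63 ± 0.12 SE, limma adjusted p = 4.74e-04) and fell 3.09-fold under IL-1β (-1.62 ± 0.12 SE, limma adjusted p = 1.85e-08). With 1450.0 ± 214 FPKM after bleomycin it ranked 17 among all genes. After doxorubicin the difference was 0.19 (95% interval -0.07 to 0.45, limma adjusted p = 0.207).

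Whether bleomycin and doxorubicin differed for Comp depended on the setting. The direct log2 difference was 0.44 ± 0.12 SE (limma adjusted p = 0.0304), but the libraries of the 2 groups overlapped and the exact permutation p was 0.0571 (n = 4 per group). The call ended with no filter on low values (limma adjusted p = 0.0886) and with median-of-ratios scaling (0.073). It also ended without bleomycin replicate 2 (0.0797) or 3 (0.0987) and without doxorubicin replicate 1 (0.0841), 2 (0.0574) or 4 (0.0842). Relative to Col2a1, Comp was at 0.104 ± 0.00632 in vehicle, 0.227 ± 0.00910 after bleomycin, 0.164 ± 0.00962 after doxorubicin and 0.0759 ± 0.00621 under IL-1β. Each treated group was apart from the vehicle in that ratio (exact permutation, adjusted p = 0.0375, n = 4), which was chosen after the levels had been seen. Every bleomycin library was higher in Comp and lower in Col2a1 than every vehicle library, so the bleomycin p was fixed by the levels. Comp thus rose relative to this collagen after both drugs and fell relative to it under IL-1β. The ratio of Matn1 to Col2a1 went from 0.0474 ± 0.00912 to 0.0769 ± 0.0119 after bleomycin and 0.0123 ± 0.00100 under IL-1β (exact permutation, adjusted p = 0.0375 each, n = 4). After doxorubicin it was 0.0604 ± 0.00869 (exact permutation, adjusted p = 0.1, n = 4).

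Thbs1 (ENSMUSG00000040152.8, GRCm38 chr2:118111876-118127133, plus strand) fell under IL-1β and was called after neither drug. Vehicle libraries held 2243, 2293, 1976 and 1973 FPKM and il1b libraries 986, 1045, 753 and 924 FPKM. Bleomycin libraries held 2150.0, 2036, 2008 and 1988 FPKM and doxorubicin libraries 2383, 2584, 2313 and 2304 FPKM. The il1b libraries lay far below, the bleomycin libraries inside the vehicle range and the doxorubicin libraries just above it. Thbs1 fell 2.29-fold under IL-1β (log2 difference -1.20 ± 0.09 SE, limma adjusted p = 1.19e-08) and remained at 927 ± 126 FPKM, still 66 in rank among all genes. The doxorubicin difference was 0.18 (95% interval -0.01 to 0.36, limma adjusted p = 0.105), and its exact permutation p was 0.0286 (n = 4 per group). The bleomycin difference was -0.05 (-0.23 to 0.14, limma adjusted p = 0.672).

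Thbs2 (ENSMUSG00000023885.9, GRCm38 chr17:14665500-14694235, minus strand), the other trimeric member, rose after both drugs. Its vehicle libraries held 49.8, 45.7, 59.6 and 65.1 FPKM and its il1b libraries 41.8, 42.1, 40.6 and 47.7 FPKM. Bleomycin libraries held 86.4, 80.5, 84.0 and 85.7 FPKM and doxorubicin libraries 93.0, 96.3, 92.8 and 111 FPKM. The drug libraries all lay above the vehicle, and the highest il1b library overlapped the lowest vehicle library. The level rose 1.53-fold after bleomycin (log2 difference 0.62 ± 0.09 SE, limma adjusted p = 5.53e-05) and 1.78-fold after doxorubicin (0.83 ± 0.09 SE, limma adjusted p = 1.93e-06). Under IL-1β it fell 1.28-fold (-0.34 ± 0.09 SE, limma adjusted p = 0.00784), and the exact permutation p was 0.0571 (n = 4 per group). With TPM that difference was -0.71. The ratio of Thbs2 to Thbs1 was 0.0263 ± 0.00625 in vehicle and higher in every treated group, at 0.0412 ± 0.00160 after bleomycin, 0.0411 ± 0.00473 after doxorubicin and 0.0471 ± 0.00671 under IL-1β (exact permutation, adjusted p = 0.0375 each, n = 4). This ratio too was chosen after the levels had been seen. Under the drugs Thbs2 was the gene of the ratio that was called, and under IL-1β Thbs1 fell by more. The summed level of 6 synovial fibroblast markers was also higher in the drug groups, at 132 to 169 FPKM after bleomycin and 179 to 239 after doxorubicin beside 59.4 to 88.6 in vehicle and 113 to 139.6 under IL-1β. Of the 5 that were tested, 3 rose after bleomycin and 4 after doxorubicin, where 27.9% and 25.4% of all tested genes rose. Under IL-1β 2 rose (Pdpn and Prg4) and 3 fell (Thy1, Cd248 and Col14a1), so the sum there does not stand for the list as a whole. The part of these markers in the rise of Thbs2 and Matn4 was not tested.

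Thbs3 (ENSMUSG00000028047.11, GRCm38 chr3:89215180-89226837, plus strand), a pentameric thrombospondin, had the smallest fold between its highest and lowest group means among the 9 genes. It was at 16.8, 18.4, 20.5 and 18.9 FPKM in vehicle and at 13.5, 14.2, 17.8 and 13.2 FPKM under IL-1β. It was at 14.2, 17.1, 17.9 and 14.7 FPKM after bleomycin and at 18.2, 15.5, 17.1 and 15.1 FPKM after doxorubicin. Every treated group overlapped the vehicle. It fell 1.27-fold under IL-1β (log2 difference -0.33 ± 0.10 SE, limma adjusted p = 0.0112), with an exact permutation p of 0.0571 (n = 4 per group), and the log2 difference with TPM was -0.71. After bleomycin the difference was -0.22 (95% interval -0.42 to -0.01, limma adjusted p = 0.0804), and it was called without bleomycin replicate 3 (limma adjusted p = 0.0447), after quantile normalization (0.0383) and after scaling by the median of ratios (0.0274). After doxorubicin the difference was -0.17 (-0.38 to 0.04, limma adjusted p = 0.166). Exons of Thbs3 share 318 bases, 6.59% of its exon bases, with exons of Mtx1 on the opposite strand, and Mtx1 was at 20.1 to 37.7 FPKM. The library kit keeps strand, but whether counting used it is not given in the sources used here.

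Thbs4 (ENSMUSG00000021702.7, GRCm38 chr13:92751590-92794818, minus strand), a pentameric thrombospondin typical of tendon and muscle as well as cartilage, fell after bleomycin and under IL-1β to nearly the same level. Vehicle libraries held 26.7, 23.5, 30.3 and 35.2 FPKM, bleomycin libraries 8.89, 8.33, 10.5 and 10.0 FPKM, doxorubicin libraries 17.2, 20.5, 24.5 and 25.1 FPKM, and il1b libraries 7.93, 8.79, 10.1 and 13.4 FPKM. The bleomycin and il1b libraries all lay below those of vehicle and doxorubicin, which overlapped each other. The fall was 3.07-fold after bleomycin (log2 difference -1.51 ± 0.15 SE, limma adjusted p = 7.95e-07) and 2.88-fold under IL-1β (-1.45 ± 0.15 SE, limma adjusted p = 9.75e-07). After doxorubicin it was 1.32-fold (-0.39 ± 0.15 SE, limma adjusted p = 0.044), with an exact permutation p of 0.0857 (n = 4 per group). That call ended with no filter on low values (limma adjusted p = 0.104), with a pseudocount of 0.01 (0.051) and with TPM (0.056). It also ended without vehicle replicate 1 (0.053), 3 (0.0924) or 4 (0.141) and without doxorubicin replicate 1 (0.146) or 2 (0.0916).

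Thbs4 also set the drugs apart. It was 2.32-fold lower after bleomycin than after doxorubicin (log2 difference -1.12 ± 0.15 SE, limma adjusted p = 2.33e-04), with no overlap of the libraries. Its ratio to Comp, the pentamer-forming relative, was 0.0313 ± 0.00613 in vehicle, 0.00658 ± 0.000907 after bleomycin and 0.0206 ± 0.00337 after doxorubicin (exact permutation, adjusted p = 0.0375 each, n = 4). The pair was chosen after the levels had been seen. Every bleomycin library was lower in Thbs4 and higher in Comp than every vehicle library, so the bleomycin p of this ratio was fixed by the levels. Under IL-1β that ratio was 0.0332 ± 0.00603 (exact permutation p = 0.657, adjusted p = 0.69, n = 4), and there Thbs4 and Comp fell by like folds, 2.88 and 3.09.

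The 250 bases upstream of Thbs2 and Thbs4 are shown because these thrombospondins moved in opposite directions after bleomycin. They are read 5′ to 3′ on the gene's strand of GRCm38.p6, at chr17:14694263-14694512 (minus) for Thbs2 and chr13:92794819-92795068 (minus) for Thbs4, from RefSeq, with capitals at matches to the motifs named above.
Thbs2: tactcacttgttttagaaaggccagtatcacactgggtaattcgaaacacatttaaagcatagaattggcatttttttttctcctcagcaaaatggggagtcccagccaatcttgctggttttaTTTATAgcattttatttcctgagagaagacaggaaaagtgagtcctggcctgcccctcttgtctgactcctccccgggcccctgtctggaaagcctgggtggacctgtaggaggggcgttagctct
Thbs4: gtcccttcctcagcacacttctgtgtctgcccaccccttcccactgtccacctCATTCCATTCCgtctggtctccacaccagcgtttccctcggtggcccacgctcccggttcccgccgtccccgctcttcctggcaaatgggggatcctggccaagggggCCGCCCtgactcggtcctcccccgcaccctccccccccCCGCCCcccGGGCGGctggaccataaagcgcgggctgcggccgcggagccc
The Thbs4 window was 70.8% G or C and held 3 GC boxes and a pair of overlapping TEAD cores. The Thbs2 window was 46.8% G or C and held a match to TATAAA on the opposite strand, 121 bases from the start, and none of the other 4 motifs. The median over all windows was 52.4% G or C.

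**Figure D4:**
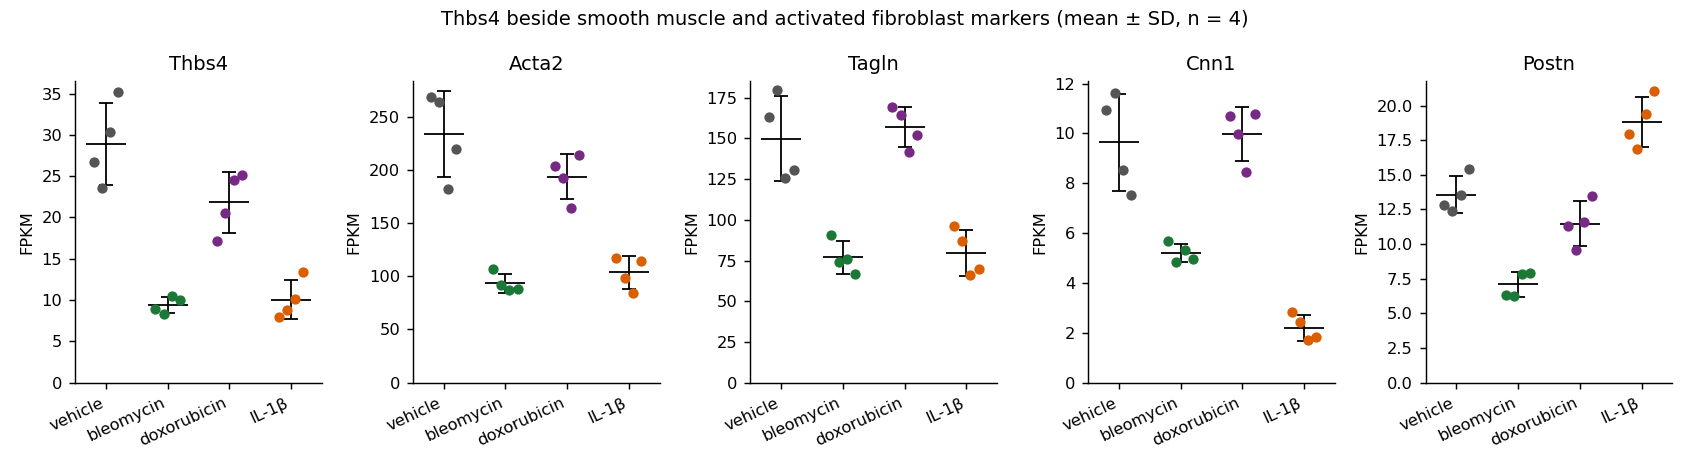
FPKM of Thbs4 and of the 4 tested smooth muscle and activated fibroblast markers in each library; each panel has its own linear axis from 0, points are libraries, and the bar and whiskers are the mean ± SD of 4. Acta2, Tagln and Cnn1 are low after bleomycin and IL-1β, as Thbs4 is, whereas Postn is low after bleomycin and high under IL-1β.

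Most tested markers of smooth muscle and activated fibroblasts fell in the groups where Thbs4 fell most. Of 4 tested markers (Acta2, Tagln, Cnn1 and Postn), all fell after bleomycin, 0 were called after doxorubicin, and 3 fell and Postn rose under IL-1β. Over all tested genes, 19.0% fell after bleomycin, 22.8% after doxorubicin and 18.4% under IL-1β. The 5 markers of the list, with Myh11 at 0.371 FPKM or less in every library, summed to 330.1 to 467 FPKM in vehicle, 168 to 209.5 after bleomycin, 327 to 395 after doxorubicin and 172 to 234 under IL-1β. Acta2, smooth muscle actin, fell from 233 to 93.3 FPKM after bleomycin (log2 difference -1.30, limma adjusted p = 6.39e-07) and to 104 FPKM under IL-1β (-1.16, limma adjusted p = 1.74e-06). The part of these cells or of this state in the Thbs4 result was not tested. Of 4 tendon and ligament markers, 3 were tested, of which 1 fell after each drug and 2 under IL-1β. Tnmd, singled out after its values were seen, fell after all 3 treatments, from 15.9 FPKM in vehicle to 2.37 after bleomycin, 4.95 after doxorubicin and 2.76 under IL-1β. Scx, a tendon transcription factor, was at 12.9 FPKM in vehicle and 13.9, 14.1 and 14.0 FPKM after the treatments and was not called in any. Mkx was called only under IL-1β, where it fell from 1.76 to 1.05 FPKM (limma adjusted p = 0.0146).

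**Figure D5:**
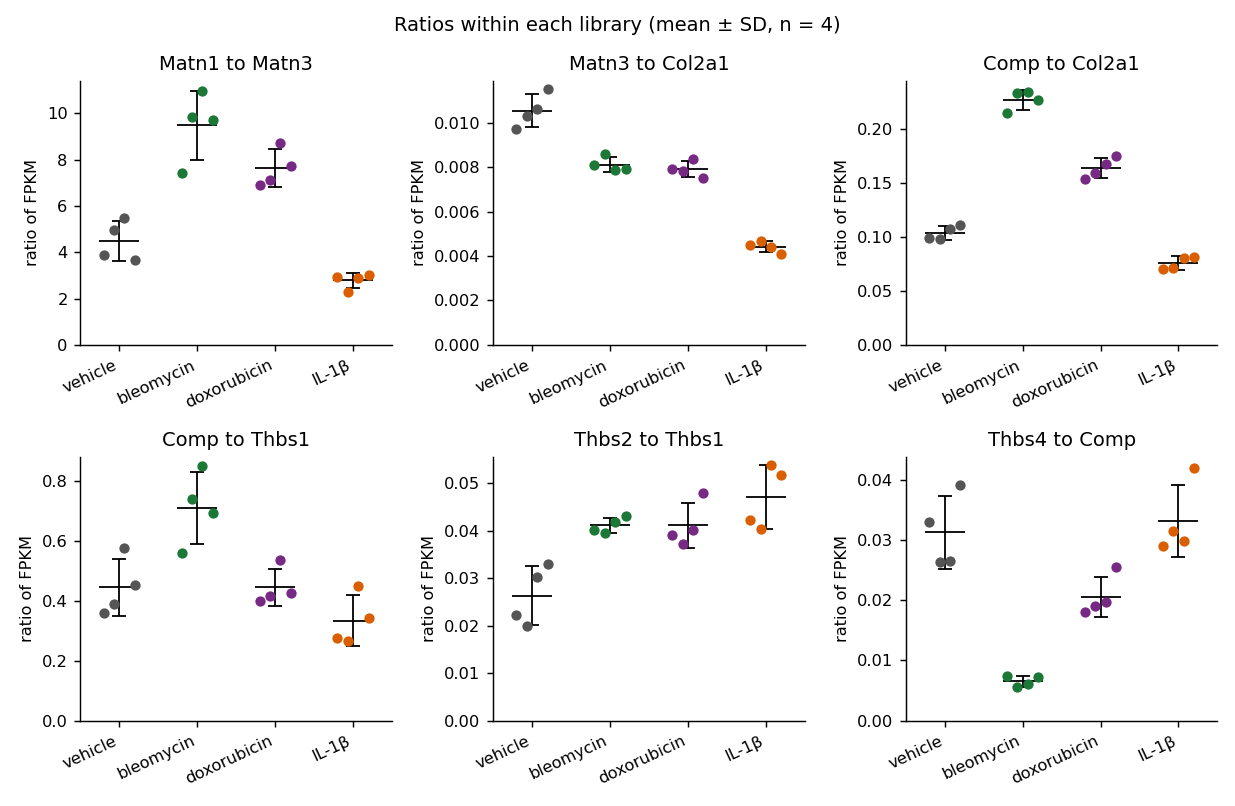
Ratio of FPKM within each library for 6 gene pairs, by group, on linear axes from 0; points are libraries and the bar and whiskers are the mean ± SD of 4. The Matn1 to Matn3 ratio is above every vehicle library after both drugs and below after IL-1β, and the bleomycin libraries have the lowest Thbs4 to Comp ratios, at 0.00552 to 0.00739.

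Between the drugs, 2 of 9 genes were called, Comp higher and Thbs4 lower after bleomycin, where 10.0% of all tested genes were called, 5.85% higher and 4.18% lower. Treatment times and the hyaluronidase step differ between these groups. Thbs1 and Thbs2 were lower in every bleomycin than in every doxorubicin library, but the log2 differences of -0.23 and -0.22 were not called (limma adjusted p = 0.115 and 0.162). The exact permutation p was 0.0286 for each (n = 4 per group), and Thbs1 was called when only these 2 groups entered the fit (limma adjusted p = 0.0438). Set against IL-1β, bleomycin left 6 of 9 genes higher and 0 lower, where 52.8% of all tested genes were called, 27.6% higher and 25.2% lower. Doxorubicin left 7 higher and 1, Matn2, lower, where 54.2% were called, 25.1% higher and 29.2% lower. The largest of these differences was that of Matn1, 10.2-fold higher after bleomycin and 8.13-fold higher after doxorubicin than under IL-1β. The Matn2 difference of -0.15 between doxorubicin and IL-1β (limma adjusted p = 0.0299) turned to 0.21 with TPM (limma adjusted p = 0.00528). Its call ended without doxorubicin replicate 2 (0.105) or 3 (0.0634) and without il1b replicate 1 (0.0559) or 2 (0.0818). Thbs3 was not called in either of these comparisons, with log2 differences of 0.12 for bleomycin and 0.16 for doxorubicin. With TPM it was higher than under IL-1β after both drugs, by 0.49 (limma adjusted p = 2.23e-04) and 0.54 (1.04e-04), and without il1b replicate 3 it was higher after doxorubicin (0.25, limma adjusted p = 0.0264).

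Ordered by level, the 4 groups gave different sequences for different genes. For Matn1, bleomycin, vehicle and doxorubicin stood in that order without a called difference between neighbours, well above IL-1β. For Matn3 the order was vehicle, then both drugs together, then IL-1β. For Matn4 and Thbs2 it was doxorubicin, bleomycin, vehicle and IL-1β, with no called difference between the drugs. For Comp it was bleomycin, doxorubicin, vehicle and IL-1β, and for Thbs1 doxorubicin, vehicle, bleomycin and IL-1β, where only the last step was called for Thbs1. For Thbs4 it was vehicle, doxorubicin, IL-1β and bleomycin, and the last pair was not called different (log2 -0.07, 95% interval -0.39 to 0.26, limma adjusted p = 0.739). For Thbs3 no neighbours in the order vehicle, doxorubicin, bleomycin and IL-1β were called different. For Matn2 the order was IL-1β, bleomycin, doxorubicin and vehicle, and only the step down to vehicle was called.

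The collagens and proteoglycans that the matrilins and COMP bind fell broadly under IL-1β. Of 11 such genes, 10 fell and 1 rose under IL-1β, 3 rose and 5 fell after bleomycin, and 3 rose and 4 fell after doxorubicin, with median log2 differences of -0.63, 0.01 and -0.23. Over all tested genes, 24.5% rose and 18.4% fell under IL-1β, 27.9% and 19.0% after bleomycin, and 25.4% and 22.8% after doxorubicin. These shares stand beside each list count below. Acan, the gene of aggrecan, fell from 619.7 ± 74.4 FPKM to 303 ± 29.5 after bleomycin, 312 ± 41.1 after doxorubicin and 148 ± 8.11 under IL-1β (limma adjusted p = 4.96e-07, 5.65e-07 and 9.71e-11). Col9a1 fell from 993 ± 150 to 395 ± 17.1 FPKM under IL-1β (limma adjusted p = 2.30e-07). Dcn, the gene of the small proteoglycan decorin, rose in all 3 comparisons, from 492 ± 47.2 to 1133 ± 74.6, 1418 ± 132 and 808 ± 11.9 FPKM. Of 7 tested genes of other noncollagenous cartilage matrix proteins, 5 fell under IL-1β and 0 rose, while after bleomycin 2 rose and 1 fell and after doxorubicin 3 rose and 1 fell. Prelp, a leucine-rich repeat matrix protein gene, rose from 97.2 ± 12.8 to 273 ± 15.8 FPKM after bleomycin and 363 ± 46.2 after doxorubicin (limma adjusted p = 8.08e-09 and 3.68e-10). Hapln1, the link protein gene, fell after all 3 treatments, to 108 ± 17.2, 104 ± 24.8 and 61.3 ± 7.79 FPKM from 192 ± 17.4. Ucma fell from 611 ± 105 to 173 ± 20.2 FPKM under IL-1β (limma adjusted p = 3.49e-09).

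Receptors of thrombospondins and COMP moved in both directions. Of 12 tested, 5 rose and 3 fell after each drug, and 5 rose and 5 fell under IL-1β. Of all tested genes, 46.9% were called after bleomycin, 48.3% after doxorubicin and 43.0% under IL-1β. The genes that rose in each comparison include Cd36 and Itgb3, which passed the filter only through treated libraries, so they add no support to the counts. Cd47, the receptor bound by the C-terminal part of thrombospondins, fell from 28.2 ± 2.32 to 20.1 ± 1.48 FPKM after bleomycin (limma adjusted p = 0.0093) and rose to 41.6 ± 8.22 under IL-1β (limma adjusted p = 0.00431). Cd36, the scavenger receptor bound by Thbs1 and Thbs2, was at 0.0682 ± 0.0590 FPKM in vehicle, 1.33 ± 0.418 after bleomycin, 2.77 ± 0.547 after doxorubicin and 0.381 ± 0.101 under IL-1β, so that only its drug-treated libraries carried it past the filter. Cacna2d1, the calcium channel subunit known as a thrombospondin receptor, rose from 8.52 ± 0.987 to 12.4 ± 1.07 and 12.7 ± 0.744 FPKM after the drugs and fell to 6.52 ± 0.474 under IL-1β. Itga6 fell after all 3 treatments. Itgb3 rose after all 3 from 0.681 ± 0.185 FPKM, and only its treated libraries carried it past the filter. Sdc4, a heparan sulfate proteoglycan of the cell surface, rose from 131 ± 8.53 to 353 ± 22.4 FPKM under IL-1β (limma adjusted p = 1.62e-11).

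Among 10 proteases known to cut these proteins, 6 rose and 2 fell after bleomycin, 6 rose and 1 fell after doxorubicin, and 5 rose and 1 fell under IL-1β. Of all tested genes, 27.9% rose after bleomycin, 25.4% after doxorubicin and 24.5% under IL-1β. The 5 that rose under IL-1β include Mmp9 and Adamts7, which were tested because their il1b libraries passed the filter. Their rise there adds no support to the count. The genes that rose include Mmp9 after bleomycin and under IL-1β. It was at 0.067 FPKM in vehicle, 0.306 after bleomycin, 0.215 after doxorubicin and 3.02 under IL-1β, so that its il1b libraries carried it past the filter. Adamts7, a metalloproteinase that degrades COMP, rose from 0.567 ± 0.0959 to 5.26 ± 0.862 FPKM under IL-1β (log2 difference 1.99) and to 1.21 ± 0.334 after doxorubicin (limma adjusted p = 0.00797). After bleomycin it was at 0.731 ± 0.309 FPKM (limma adjusted p = 0.476). The il1b libraries of Adamts7 alone met the filter, and none of its vehicle libraries reached 1 FPKM. Its rise under IL-1β is therefore given as a description, without a p-value. Mmp3, stromelysin 1, rose after all 3 treatments, from 16.6 ± 6.53 FPKM in vehicle to 27.8 ± 5.84 after bleomycin (limma adjusted p = 0.0178), 166 ± 68.1 after doxorubicin (2.58e-08) and 2799 ± 138 under IL-1β (1.93e-12). Its bleomycin and vehicle libraries overlapped, with an exact permutation p of 0.0857 (n = 4 per group). Mmp13, collagenase 3, rose from 182 ± 52.8 to 351 ± 108 FPKM after doxorubicin (limma adjusted p = 5.70e-04) and to 1518 ± 62.7 under IL-1β (1.33e-09), and was at 196 ± 27.7 after bleomycin (0.561). Mmp19 rose after the drugs, from 3.93 ± 0.449 to 9.76 ± 0.477 and 15.0 ± 0.623 FPKM, and so did Mmp14, from 85.3 ± 0.497 to 152 ± 2.57 and 150.0 ± 14.1 FPKM. Under IL-1β neither was called (limma adjusted p = 0.0752 and 0.0673).

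In the latent TGF-beta axis, on which Thbs1 acts, 6 of 12 genes rose and 1 fell after bleomycin, 6 rose and 0 fell after doxorubicin, and 4 rose and 6 fell under IL-1β. Beside these counts, 46.9%, 48.3% and 43.0% of all tested genes were called in the 3 comparisons. Tgfb1 rose after all 3 treatments, from 8.15 ± 0.244 to 14.3 ± 0.872, 12.5 ± 1.07 and 15.5 ± 1.67 FPKM (limma adjusted p = 1.10e-06, 1.96e-05 and 1.86e-07). Tgfb2 rose from 17.7 ± 0.817 to 26.6 ± 0.956 and 24.2 ± 1.17 FPKM after the drugs and fell to 9.11 ± 1.15 under IL-1β. The receptor gene Tgfbr2 fell from 55.0 ± 1.21 to 20.5 ± 1.77 FPKM and Ccn2, a TGF-beta target, from 659 ± 3.02 to 199.6 ± 13.2 FPKM under IL-1β.

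Of 7 transcription factors of chondrocytes, 1 rose and 4 fell after bleomycin, 1 rose and 3 fell after doxorubicin, and 0 rose and 3 fell under IL-1β, where 5 were called without il1b replicate 3 and 6 with TPM. Among all tested genes, 19.0% fell after bleomycin, 22.8% after doxorubicin and 18.4% under IL-1β. Sox9, which drives the cartilage programme that includes Matn1 and Comp, fell from 57.3 ± 1.62 to 44.3 ± 2.09, 46.8 ± 3.00 and 31.1 ± 2.87 FPKM (limma adjusted p = 2.64e-04, 0.0016 and 1.89e-08). Sox6 fell from 15.4 ± 0.537 to 12.9 ± 0.600 FPKM after bleomycin and 10.2 ± 1.28 under IL-1β. Runx3 fell after all 3 treatments and Runx2 after both drugs.

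For each of the 9 genes, the tested genes with the nearest set of 3 log2 differences from vehicle were found by the root mean square of the 3 gaps between their differences and its own. The nearest to Matn1 was Igfbp5, at a distance of 0.19, which went from 216 to 245, 249 and 23.0 FPKM. The nearest to Matn3 were Lsp1 (0.17), Acan (0.21) and H19 (0.27). The nearest to Thbs4 was Acta2 (0.22), then Rtl3 and Krt19. Comp was nearest to Luzp2 (0.14), Clec11a and Chrd. No tested gene lay within 0.1 of Matn1, Matn3, Comp or Thbs4, whereas 296 lay within 0.1 of Thbs3, 55 of Matn2, 12 of Thbs2, 6 of Matn4 and 2 of Thbs1. Adgrl2, Clca3a2 and Svep1 were nearest to Matn4, Tcfl5, Itih2 and Itih5 to Thbs2, and 2900026A02Rik, Glis2 and Prss53 to Thbs1. Since 1 FPKM was added before the log, a small distance to a gene of low level does not mean a like fold. Clca3a2 went from 0.844 FPKM in vehicle to 0.0204 under IL-1β, and Luzp2 from 3.27 to 0.461. Rhebl1, Ndufa1 and H2aj were nearest to Matn2, and Mios, Gm14176 and Prkaa2 to Thbs3. Among the 9 genes the nearest pair was Matn4 and Thbs2, at 0.25.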

How the data were processed

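Messenger RNA of 16 libraries was sequenced with a stranded poly(A) kit, per the labels' protocols. Per the submitters' processing notes, Trimmomatic and STAR were used with the mouse build GRCm38. The deposited tables hold FPKM, which the authors computed for each library; the tool, its annotation and its use of strand are not given in the sources used here. Counts could not be recovered, since 58.0% to 61.8% of low values were whole fragments within 0.1. Values were analysed as log2(FPKM + 1), without further scaling. Genes reaching 1 FPKM in 4 or more libraries (12976 of 55450) entered a linear model of the 16 libraries (limma 3.58.1 under R 4.3.3, mean-variance trend). Benjamini-Hochberg adjustment was made over all tested genes within each of 6 comparisons. Since 1 FPKM was added, log2 differences understate changes of low genes; folds are ratios of means. Ratios were tested by 2-sided exact permutation. Gene coordinates come from GENCODE M21 on GRCm38 and promoter sequences from RefSeq (GRCm38.p6). The fit was tested on simulated data.

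Members, lists and tests were chosen with earlier results of these data known. All 9 members were named, up to 2 called genes of each of 6 lists per comparison with vehicle by size of difference (with Sox9, Col2a1, Acan, Tgfb1, Cd47 and Adamts7 always), and the 3 nearest genes of each member. A gene named by this rule is not reported here. Alternatives were other pseudocounts, filters, scalings (TPM, median of ratios, quantile), a replicate block, no trend, only the groups compared, each library left out and exact permutation; leaving libraries out of the ratios was added after the data were seen.

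Markers of other cell types were summed per library: tendon and ligament at 14.6 to 33.4 FPKM, osteoblast at 15.9 to 31.2, skeletal muscle at 2.03 to 4.61 and platelet at 3.41 to 10.0 over all groups.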

Additional observations from a re-analysis of the deposited data

How the results depend on the processing

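Of the comparisons of single members under the alternatives, 973 kept their direction and side of the threshold, 26 lost the call, 14 gained it and 13 changed sign. Under the limma alternatives 9 members were called under IL-1β and 6 to 7 after bleomycin; by exact permutation Thbs2 and Thbs3 lost the call under IL-1β (p = 0.0571 each, n = 4). With quantile normalization the bleomycin differences of Thbs1 (0.012 on the log2 scale) and Adamts7 (-0.086) changed sign and that of Col2a1 was 0.00. A gene that keeps its rank gets a difference of 0.00 by that scaling, whatever its level. Matn3 between the drugs was -0.040 with median-of-ratios scaling, -0.015 with quantile normalization and -0.084 to 0.097 with 1 library left out. Rescaling to TPM turned Matn2 to 0.33 and Thbs4 to 0.30 between bleomycin and IL-1β, and Matn2 to 0.21 between doxorubicin and IL-1β. With 1 library left out the ranges were -0.26 to 0.085 for Matn1 after doxorubicin, -0.10 to 0.0041 for Thbs3 between the drugs, -0.16 to 0.068 for Thbs4 between bleomycin and IL-1β, -0.078 to 0.15 for the Comp to Thbs1 ratio after doxorubicin and -0.033 to 0.20 for the Thbs4 to Comp ratio under IL-1β. Members called between the drugs numbered 1 with no filter and 1 with median-of-ratios scaling, and 1 to 2 with 1 library left out, because Comp dropped out. The cause of each was not tested. Ratios with 1 library left out were compared in direction and size, without a test. Of the 11 matrix genes, 5 were called after bleomycin with quantile normalization, beside 8.

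Same-numbered libraries of different groups deviated together only in part. Correlations of their deviations were 0.05 to 0.21 for bleomycin and vehicle, 0.02 to 0.12 for doxorubicin and vehicle, and 0.04 to 0.21 for IL-1β and vehicle. Libraries of different number gave -0.15 to 0.07, -0.08 to 0.07 and -0.12 to 0.10, so the ranges overlapped. The best partner was its own number for 3, 2 and 3 of 4 libraries. The numbers were not taken as pairs, and whether they mark a shared source is not given in the sources used here. With a replicate block, Thbs3 after bleomycin (limma adjusted p = 0.0371), Comp (0.0144) and Thbs1 (0.0372) after doxorubicin and Thbs1 between the drugs (0.0405) gained a call, so members called after doxorubicin went from 5 to 7.

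The share of tested genes that were higher moved with scaling: after bleomycin from 59.5% to 47.7% with median of ratios and 48.3% with quantile normalization, under IL-1β from 57.1% to 16.1% with TPM and 44.0% with quantile normalization, and between the drugs from 58.3% to 39.7% with median of ratios and 46.6% with quantile normalization. Bleomycin over IL-1β moved from 52.2% to 86.3% and doxorubicin over IL-1β from 46.2% to 82.0% with TPM. With 4 libraries a group, exact permutation cannot go below 0.0286.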
